A study of Mus musculus with 28 samples.

Results

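Wnt signalling genes were followed through the reprogramming of mouse fibroblasts into induced pluripotent stem cells (iPSCs), in cells labelled WT and cells labelled K36M. The 56 genes were chosen by name from 37620 listed genes: 18 Wnt ligands, 12 receptors (10 Frizzled genes, Lrp5 and Lrp6), 8 secreted antagonists, 7 R-spondin and Lgr genes, 6 feedback genes and 5 nuclear effectors. Every symbol was found, in 57 rows, because Fzd10 has 2 records. K36M is the replacement of lysine by methionine in the tail of histone H3, and the library names give H3_3 for the WT cells. How the K36M histone was expressed, in which mouse strain and at what embryonic age the cells were taken is not given in the sources used here. The cells were mouse embryonic fibroblasts (MEFs) before reprogramming (d0), intermediates reprogrammed by OKSM (Oct4, Klf4, Sox2 and Myc) for 2 to 8 days (d2, d4, d6 and d8), passaged iPSCs, and MEFs kept without OKSM (noOKSM). Each genotype had 2 libraries at each of these 7 stages, 28 in all. The medium was DMEM with serum for MEFs, AGi for the intermediates and S/L for iPSCs, alike for both genotypes, and that of the noOKSM cells is not stated separately. In this field the name AGi is used for ascorbic acid with a GSK3 inhibitor, which would itself stabilise beta-catenin, but the labels do not spell it out. Stage and medium therefore cannot be told apart where d2 to d8 are set against d0 or iPSCs, while the comparisons of K36M with WT lie within a stage.

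Wnt ligands are secreted proteins that bind a Frizzled receptor together with Lrp5 or Lrp6, which stops the Axin, Apc and Gsk3 complex from marking beta-catenin for destruction, so that beta-catenin enters the nucleus and acts with Tcf and Lef proteins on target genes. Some ligands, Wnt5a and Wnt11 among them, act mainly through routes that do not use beta-catenin. Mesenchymal cells are typically rich in such ligands, Frizzled receptors and secreted antagonists, whereas in pluripotent cells beta-catenin is known for relieving the repression of pluripotency genes by Tcf7l1.

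Library totals ran from 17507521 to 35622279 counts. Replicates of K36M d6 lay further apart than those of any other group, with an SD of the log2 difference between the pair of 0.653 over genes against 0.331 to 0.419 in the other 13 groups. The cell types in the labels were checked on summed marker levels, in CPM, a gene's count relative to the scaled total of its library. The 8 fibroblast markers summed to 19481 to 24073 CPM in WT and 26909 to 27141 in K36M at d0, and to 1962 to 2073 and 105 to 123 at d8. In iPSCs these fibroblast markers summed to 811 to 1285 CPM in WT and 1112 to 1332 in K36M, which was above K36M d8. The 9 pluripotency markers summed to 5123 to 5154 CPM in WT and 5060.2 to 5387 in K36M iPSCs, and to 285 to 290.4 and 1563 to 1580.3 at d8. The 6 epithelial markers summed to 64.7 to 71.7 CPM in WT and 1780.0 to 1803 in K36M at d4. Fibroblast markers were thus lower and epithelial and pluripotency markers higher in K36M than in WT at the same days on which many Wnt genes differed. Other marker sets differed too. The 6 macrophage markers summed to 41.7 to 44.9 CPM in WT and 12.89 to 12.95 in K36M at d0. The 5 keratinocyte markers summed to 4.31 to 4.35 CPM in WT and 32.1 to 33.7 in K36M at d4. The part of these cell types in the results below was not tested. In bulk RNA, fewer cells of a type and less RNA per cell cannot be told apart. Whether replicates were separate cultures is not stated, and the spread behind the p-values may therefore be technical.

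Of the 56 genes, 54 had enough counts to be tested (Wnt1 and Wnt9b did not), by edgeR's quasi-likelihood test with Benjamini-Hochberg adjustment over all 16932 genes tested. A gene is called where the adjusted p is below 0.05. Wnt10a and Dkk1, at most 0.322 and 0.371 CPM in any WT library, passed the count filter only through K36M groups. Their calls in the counts below are therefore not independent of that filter. At d0, 12 genes were called higher and 8 lower in K36M than in WT, where 7.6% of all genes were called higher and 8.31% lower. At d2 the counts were 12 higher and 7 lower, against 9.74% and 10.4% of all genes. At d4 they were 18 and 15 (27.1% and 25.8% of all genes), at d6 19 and 21 (37.3% and 33.7%), and at d8 23 and 18 (31.6% and 29%). With 54 genes tested, the share called in either direction on these 3 days was 61.1%, 74.1% and 75.9%, beside 52.9%, 70.9% and 60.6% of all genes, a difference from all genes that was not tested. The median log2 fold change over the tested Wnt genes was -0.07 at d4, -0.08 at d6 and 0.03 at d8, beside 0.02, 0.08 and 0.04 over all genes. In iPSCs 2 genes were called higher and 1 lower (0.756% and 0.49% of all genes), and in noOKSM MEFs 20 higher and 9 lower (18.2% and 16.7%).

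The calls from d4 to d8 were also counted by role. Of 16 tested ligands, 8 higher and 2 lower were called at d4, 8 higher and 3 lower at d6 and 10 higher and 4 lower at d8, with medians of 1.24, 0.80 and 1.34 on the log2 scale. Of 12 receptors, the counts were 2 higher and 6 lower, 2 higher and 8 lower and 4 higher and 5 lower, with medians of -0.79, -1.02 and -0.28. Of 8 antagonists they were 1 higher and 3 lower, 2 higher and 4 lower and 2 higher and 4 lower. Of 7 R-spondin and Lgr genes they were 2 higher and 3 lower, 3 higher and 2 lower and 3 higher and 3 lower, of 6 feedback genes 3 higher and 1 lower, 2 higher and 2 lower and 2 higher and 1 lower, and of 5 nuclear genes 2 higher and 0 lower, 2 higher and 2 lower and 2 higher and 1 lower. Ligands thus had more calls higher than lower on each of these days, receptors and antagonists more lower than higher, and the other roles were closer to balance. The difference between roles was not tested. The genes called higher at each of d4, d6 and d8 were 15, where 16.2% of all genes were: Wnt3, Wnt3a, Wnt6, Wnt7a, Wnt7b, Wnt8a, Wnt10a, Fzd9, Fzd10, Sfrp2, Rspo1, Axin2, Rnf43, Tcf7 and Tcf7l1. The genes called lower at each of these days were 12, where 16.2% of all genes were: Wnt11, Wnt16, Fzd1, Fzd3, Fzd6, Fzd7, Fzd8, Dkk2, Dkk3, Rspo3, Lgr5 and Nkd2. At d2 as well as these days, 8 of the former were called higher (Wnt3, Wnt6, Wnt8a, Fzd9, Fzd10, Sfrp2, Rspo1 and Tcf7), where 4.93% of all genes were, and 4 of the latter lower (Wnt11, Fzd1, Fzd7 and Dkk3), where 6.14% were. Of the 12, Dkk3 lost its call at d2 without any 1 of the 4 d2 libraries (adjusted p from 0.0852 to 0.172) and without the noOKSM libraries (adjusted p = 0.0513), Fzd9 without 1 of 2 libraries (adjusted p = 0.241 without WT d2 replicate 1 and 0.205 without K36M d2 replicate 1) and Wnt6 without 1 of 3 (adjusted p from 0.0514 to 0.0824), and Wnt11 and Sfrp2 lost theirs as given with their values.

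At d0, before reprogramming, the 12 genes called higher in K36M were Wnt2b, Wnt4, Wnt9a, Wnt11, Dkk2, Sfrp2, Lgr5, Rspo1, Axin2, Nkd2, Tcf7 and Tcf7l1, and the 8 called lower were Fzd1, Fzd7, Fzd8, Sfrp1, Lgr6, Rspo2, Rspo3 and Rnf43. Of these 20 calls, 11 were lost without at least 1 of the d0 libraries: Wnt2b, Wnt9a, Wnt11, Dkk2, Rspo1, Tcf7l1, Fzd1, Fzd8, Lgr6, Rspo2 and Rnf43. The Tcf7l1 call was borderline. It was also lost in a fit that is not robust (adjusted p = 0.0514), without the noOKSM libraries (adjusted p = 0.0556) and without most single libraries of other stages. Some d0 differences had the opposite sign to later ones, among them those of Wnt4, Wnt11, Dkk2, Lgr5, Nkd2, Lgr6 and Rnf43.

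**Figure D1:**
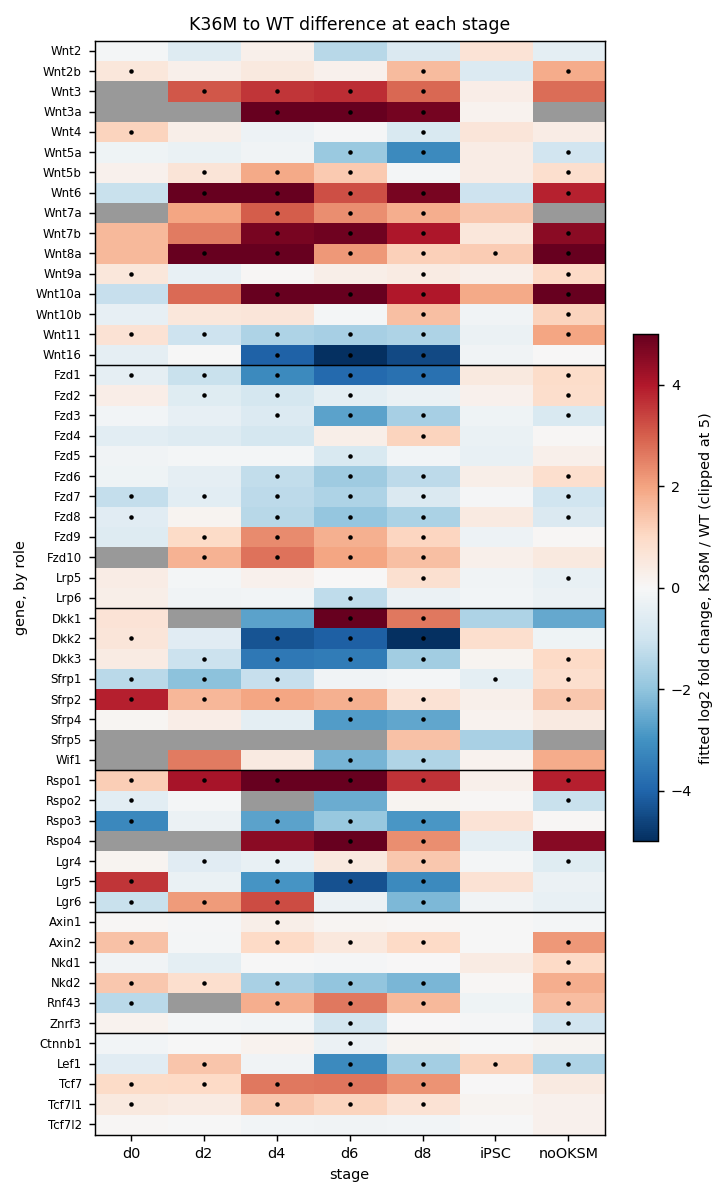
Log2 fold changes of K36M against WT (colour, limited to 5 in either direction) for the 54 tested Wnt genes (rows, by role) at the 7 stages (columns), with a dot where the adjusted p is below 0.05 and grey where both groups hold 3 counts or fewer. Among calls from d4 to d8, ligands are mostly red and receptors mostly blue, and the iPSC column holds 3 dots.

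Among the ligands, Wnt8a, a ligand of early embryos that signals through beta-catenin, was at or near 0 in MEFs at d0 and was called higher in K36M at every later stage. Wnt8a in WT cells stood at CPM values of 0 and 0.051 at d0, 0.0408 and 0 at d2, 1.27 and 0.983 at d4, 12.4 and 11.5 at d6, 23.6 and 21.4 at d8, 0.451 and 0.745 in iPSCs, and 0 and 0 without OKSM. Wnt8a in K36M cells stood at CPM values of 0.0893 and 0.0921 at d0, 1.93 and 1.79 at d2, 47.9 and 45.8 at d4, 57.3 and 50.3 at d6, 48.6 and 53.8 at d8, 1.51 and 1.46 in iPSCs, and 0.635 and 0.726 without OKSM. For Wnt8a, the K36M pair lay above the WT pair at d0, d2, d4, d6, d8, the iPSC stage and noOKSM. At d0 this rested on 4 counts against 1, a ratio of 3.47-fold (95% counting interval 0.343 to 171). Here and below, the order of the pairs is a description and not a call. The share of all genes whose pairs lay apart was not computed. WT libraries at d4 were still far below their d6 and d8 levels, while the K36M pair at d4 was already close to its own. At d2 the K36M pair held 75 counts of Wnt8a against 1 in the WT pair, a ratio of 94.1-fold (95% counting interval 16.4 to 3765). Wnt8a had a log2 fold change of 5.41 ± 0.166 (adjusted p = 1.04e-16) at d4, 2.17 ± 0.123 (adjusted p = 1.12e-12) at d6 and 1.19 ± 0.116 (adjusted p = 1.12e-08) at d8, narrowing as WT cells gained Wnt8a. WT cells themselves went from 0.0204 CPM at d2 to 22.5 ± 1.56 (SD, n = 2) at d8, and in iPSCs of either genotype it was low again.

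Wnt7b, a ligand of epithelia, followed a related course and was, unlike Wnt8a, high in iPSCs. Wnt7b in WT cells stood at CPM values of 0.107 and 0.153 at d0, 0.0408 and 0 at d2, 0.159 and 0.254 at d4, 0.551 and 0.289 at d6, 1.66 and 1.05 at d8, 10.7 and 11.5 in iPSCs, and 0.21 and 0.0403 without OKSM. Wnt7b in K36M cells stood at CPM values of 0.313 and 0.507 at d0, 0.23 and 0.0542 at d2, 6.49 and 5.45 at d4, 14.8 and 9.84 at d6, 22.8 and 20.9 at d8, 17.2 and 15.8 in iPSCs, and 3.18 and 3.02 without OKSM. For Wnt7b, the K36M pair lay above the WT pair at d0, d2, d4, d6, d8, the iPSC stage and noOKSM. At d2 this rested on 6 counts against 1, a ratio of 7.53-fold (95% counting interval 0.913 to 346). Wnt7b had a log2 fold change of 4.74 ± 0.371 (adjusted p = 2.47e-10) at d4, 4.85 ± 0.313 (adjusted p = 4.83e-12) at d6 and 4.06 ± 0.239 (adjusted p = 1.45e-12) at d8, and it was 0.57 ± 0.194 (adjusted p = 0.196) in iPSCs, where the call was not made. Its exons share 38 bases with AU022754 on the opposite strand, a gene with 19 counts over all libraries.

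Wnt3, a ligand needed for gastrulation, was scarcely detected in MEFs. Wnt3 in WT cells stood at CPM values of 0 and 0 at d0, 0.163 and 0.0772 at d2, 0.371 and 0.285 at d4, 0.414 and 0.626 at d6, 1.08 and 0.887 at d8, 0.702 and 1.41 in iPSCs, and 0.0349 and 0 without OKSM. Wnt3 in K36M cells stood at CPM values of 0 and 0.0461 at d0, 0.92 and 1.25 at d2, 3.79 and 3.85 at d4, 8.89 and 4.5 at d6, 6.95 and 7.31 at d8, 1.4 and 1.3 in iPSCs, and 0.169 and 0.153 without OKSM. For Wnt3, the K36M pair lay above the WT pair at d2, d4, d6, d8 and noOKSM and overlapped it at d0 and the iPSC stage. Wnt3 had a log2 fold change of 3.12 ± 0.602 (adjusted p = 0.000563) at d2 (3.71 without WT d2 replicate 1), 3.56 ± 0.401 (adjusted p = 1.25e-07) at d4, 3.67 ± 0.355 (adjusted p = 6.92e-09) at d6 and 2.87 ± 0.3 (adjusted p = 3.37e-08) at d8. Wnt7a, a close relative of Wnt7b, behaved alike from d4 on. Wnt7a in WT cells stood at CPM values of 0 and 0.102 at d0, 0.123 and 0 at d2, 0.371 and 0.507 at d4, 1.15 and 1.16 at d6, 1.49 and 1.5 at d8, 0.1 and 0.166 in iPSCs, and 0.0699 and 0 without OKSM. Wnt7a in K36M cells stood at CPM values of 0.0893 and 0.0461 at d0, 0.23 and 0.271 at d2, 4.08 and 3.43 at d4, 6.44 and 5.02 at d6, 4.99 and 5.52 at d8, 0.259 and 0.452 in iPSCs, and 0 and 0 without OKSM. For Wnt7a, the K36M pair lay above the WT pair at d2, d4, d6, d8 and the iPSC stage and overlapped it at d0 and noOKSM. Wnt7a had a log2 fold change of 3.03 ± 0.335 (adjusted p = 9.55e-08) at d4, 2.31 ± 0.28 (adjusted p = 2.2e-07) at d6 and 1.80 ± 0.259 (adjusted p = 3.22e-06) at d8.

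Wnt3a, Wnt6 and Wnt10a, 3 further ligands of low level, were picked out after their values were seen. Wnt3a held 27 counts in the K36M pair and 0 in the WT pair at d4 (at least 10.9-fold higher, against a floor of 3 counts over the pair) and 111 against 0 at d6 (at least 33.2-fold higher). Wnt6 was at 0 counts in WT d2, against 10 in K36M (at least 4.18-fold higher), and at 0.177 CPM in WT against 4.93 in K36M at d8. Wnt10a held 181 counts in K36M against 2 in WT at d4, a ratio of 109.5-fold (95% counting interval 29.9 to 911). For 6 genes all 6 K36M libraries of d4 to d8 lay above all 14 WT libraries of any stage, iPSCs included, which held for 3.25% of all genes: Wnt3, Wnt6, Wnt7a, Wnt8a, Wnt10a and Tcf7l1. For Fzd1, Fzd7, Dkk2 and Rspo3 all 6 lay below all 14, which held for 3.12% of all genes. This rule was set after the values were seen, and Wnt10a passed the count filter only through K36M groups.

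Wnt5a, the most abundant ligand of WT MEFs and one that acts mainly outside the beta-catenin route, went the other way. It lies at chr14:29317936-29340633 of mm9. Wnt5a in WT cells stood at CPM values of 220.0 and 248 at d0, 43.4 and 42.1 at d2, 12.7 and 15.6 at d4, 16.1 and 15.1 at d6, 19 and 18.8 at d8, 6.21 and 9.48 in iPSCs, and 223 and 224 without OKSM. Wnt5a in K36M cells stood at CPM values of 201 and 201 at d0, 33.7 and 34 at d2, 12.7 and 12.8 at d4, 2.4 and 6.14 at d6, 1.92 and 2.18 at d8, 8.67 and 11.7 in iPSCs, and 125 and 107 without OKSM. For Wnt5a, the K36M pair lay below the WT pair at d0, d2, d6, d8 and noOKSM and overlapped it at d4 and the iPSC stage. Both genotypes lost most of it by d2, with a log2 fold change of -2.45 ± 0.196 (adjusted p = 4.59e-10) in WT. From d4 on the WT libraries held level while the K36M libraries kept falling. K36M was called lower at d6, where the log2 fold change was -1.85 ± 0.241 (adjusted p = 6.76e-07) (-2.70 without K36M d6 replicate 2), and at d8, with -3.20 ± 0.27 (adjusted p = 1.28e-09). In noOKSM MEFs it was -0.94 ± 0.185 (adjusted p = 0.000409). Over d2 to d8 together the call on Wnt5a was lost without the libraries of d6 (adjusted p = 0.0561). Wnt5a shares 358 bases of exon with Gm2670 on the opposite strand (621 counts over all libraries).

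Wnt11, which signals in cell movement, fell in both genotypes along the course and was called lower in K36M from d2 to d8. Wnt11 in WT cells stood at CPM values of 6.92 and 5.82 at d0, 4.9 and 6.87 at d2, 3.93 and 2.98 at d4, 1.61 and 1.88 at d6, 1.41 and 1.29 at d8, 0.752 and 0.745 in iPSCs, and 3.28 and 3.23 without OKSM. Wnt11 in K36M cells stood at CPM values of 9.82 and 11.3 at d0, 2.85 and 2.82 at d2, 0.984 and 1.36 at d4, 0.755 and 0.361 at d6, 0.719 and 0.194 at d8, 0.623 and 0.602 in iPSCs, and 13.7 and 12.3 without OKSM. For Wnt11, the K36M pair lay above the WT pair at d0 and noOKSM and lay below it at d2, d4, d6, d8 and the iPSC stage. Wnt11 had a log2 fold change of -1.52 ± 0.283 (adjusted p = 8.61e-05) at d4 and -1.65 ± 0.36 (adjusted p = 0.000309) at d6 (-2.25 without K36M d6 replicate 1). At d2 it was -1.05 ± 0.231 (adjusted p = 0.00173) and lost its call without WT d2 replicate 2 (adjusted p = 0.0612). At d8 it was -1.54 ± 0.386 (adjusted p = 0.00151), with -2.76 without K36M d8 replicate 1 and -0.90 without K36M d8 replicate 2, where the call was lost (adjusted p = 0.0621). In noOKSM MEFs the order was the opposite, with 1.99 ± 0.208 (adjusted p = 9.35e-08). Wnt16 dropped by d2 in both genotypes, to 0.793 CPM in WT and 0.781 in K36M. At d6 it was at 2.41 CPM in WT and 0.0402 in K36M. It held 103 counts in WT against 2 in K36M at d6, 57.4-fold (95% counting interval 15.5 to 480.3) more in WT.

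Wnt5b, a close relative of Wnt5a, was higher in K36M at the middle days and was not called at d8. Wnt5b in WT cells stood at CPM values of 4.56 and 6.43 at d0, 2.45 and 2.04 at d2, 2.81 and 2.95 at d4, 4.14 and 3.8 at d6, 6.8 and 6.99 at d8, 1 and 1.28 in iPSCs, and 5.03 and 5.49 without OKSM. Wnt5b in K36M cells stood at CPM values of 5.98 and 6.82 at d0, 3.77 and 3.25 at d2, 10.1 and 11.2 at d4, 11.5 and 8.07 at d6, 6.71 and 6.29 at d8, 1.87 and 1.15 in iPSCs, and 8.43 and 10.2 without OKSM. For Wnt5b, the K36M pair lay above the WT pair at d2, d4, d6 and noOKSM, lay below it at d8 and overlapped it at d0 and the iPSC stage. Wnt5b had a log2 fold change of 1.88 ± 0.194 (adjusted p = 2.41e-08) at d4, 1.29 ± 0.189 (adjusted p = 2.49e-06) at d6 and -0.09 ± 0.181 (adjusted p = 0.704) at d8. Wnt9a, named for its level, changed less. Wnt9a in WT cells stood at CPM values of 21.6 and 23.1 at d0, 6.62 and 6.79 at d2, 6.9 and 7.93 at d4, 9.88 and 9.63 at d6, 12.3 and 10.3 at d8, 2.56 and 3.44 in iPSCs, and 22.3 and 20.6 without OKSM. Wnt9a in K36M cells stood at CPM values of 33.7 and 31.8 at d0, 4.46 and 6.07 at d2, 8.02 and 7.56 at d4, 11.5 and 12.6 at d6, 16.7 and 13.6 at d8, 3.63 and 3.51 in iPSCs, and 44.4 and 42.2 without OKSM. For Wnt9a, the K36M pair lay above the WT pair at d0, d6, d8, the iPSC stage and noOKSM, lay below it at d2 and overlapped it at d4. Wnt9a had a log2 fold change of 0.06 ± 0.146 (adjusted p = 0.754) at d4 and 0.30 ± 0.137 (adjusted p = 0.0525) at d6, neither of them called, and 1.01 ± 0.122 (adjusted p = 7.24e-07) in noOKSM MEFs. It was called higher at d0, with 0.55 ± 0.125 (adjusted p = 0.00353), and at d8, with 0.43 ± 0.132 (adjusted p = 0.00788). The d0 call was lost without 1 library (adjusted p = 0.0589 without WT d0 replicate 1 and 0.0505 without K36M d0 replicate 1), and so was the d8 call (adjusted p = 0.135 without WT d8 replicate 2 and 0.171 without K36M d8 replicate 1). Of the other ligands, Wnt2, Wnt2b, Wnt4 and Wnt10b had their highest group means in MEFs, between 8.66 and 56.6 CPM. Of these, Wnt2 was called at no stage, and Wnt2b and Wnt10b were called higher in K36M at d8 and in noOKSM MEFs. Wnt4 turned, from a log2 fold change of 1.13 ± 0.129 (adjusted p = 1.25e-06) at d0 to -0.74 ± 0.137 (adjusted p = 6.51e-05) at d8. Wnt2b was called higher at d0 as well, with 0.58 ± 0.174 (adjusted p = 0.0251), and lost that call without 1 library (adjusted p = 0.491 without WT d0 replicate 1, 0.109 without K36M d0 replicate 1 and 0.12 without K36M d0 replicate 2). Wnt1 and Wnt9b stayed at or under 0.189 CPM in every group.

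Ligands were also compared with each other per length, as CPM per kilobase of exon. In WT MEFs at d0, Wnt5a made up 54.5% of the summed ligand level and Wnt9a 12.3%. In K36M MEFs at d0 the shares were 43.5% and 16.6%. In noOKSM MEFs Wnt5a held 58% in WT, but in K36M Wnt2b held 25.3% beside 23.8% for Wnt5a. At d4 Wnt9a led in WT with 23.1%, followed by Wnt5a with 18.8%, and Wnt8a held 6.72%, whereas in K36M Wnt8a alone held 60.1%. WT reached a make-up led by Wnt8a at d6 (39.2%) and d8 (49.2%), beside 59.7% and 55.1% in K36M. The summed ligand level was 9.63 ± 0.0743 CPM per kilobase in WT and 44.6 ± 1.22 in K36M at d4 (mean ± SD, n = 2), and 26.1 ± 1.54 and 53.2 ± 0.752 at d8. It was 11.8 ± 0.291 in WT and 11.4 ± 0.0131 in K36M at d2, where the genotypes were close. In iPSCs Wnt7b led in both genotypes, with 33.8% in WT and 37.2% in K36M, of sums of 7.52 ± 1.31 and 10.1 ± 0.14.

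**Figure D2:**
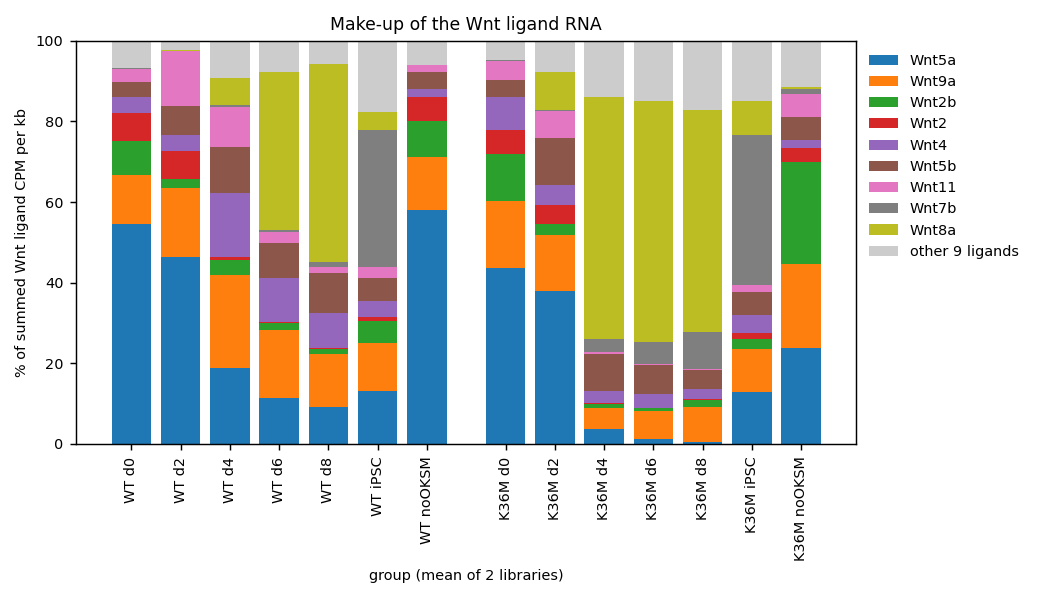
Share of each ligand in the summed Wnt ligand level per kilobase of exon (vertical axis, percent) in each group (horizontal axis), as the mean of 2 libraries. Wnt5a takes the largest share in the WT MEFs and at d2, Wnt8a in K36M from d4 to d8 and in WT at d6 and d8, and Wnt7b in iPSCs of both genotypes.

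More receptors were called lower than higher in K36M. Fzd1, a Frizzled receptor at chr5:4753842-4758216 of mm9, was called lower at d2, d4, d6 and d8. Fzd1 in WT cells stood at CPM values of 71.7 and 76.2 at d0, 17.4 and 18.5 at d2, 24.5 and 26.3 at d4, 31.9 and 32.1 at d6, 26.4 and 30.8 at d8, 5.86 and 5.71 in iPSCs, and 42.4 and 42.2 without OKSM. Fzd1 in K36M cells stood at CPM values of 56.7 and 52.8 at d0, 8.46 and 8.24 at d2, 2.31 and 3.19 at d4, 1.87 and 2.45 at d6, 2.21 and 2.08 at d8, 7.21 and 8.98 in iPSCs, and 87.9 and 70.1 without OKSM. For Fzd1, the K36M pair lay above the WT pair at the iPSC stage and noOKSM and lay below it at d0, d2, d4, d6 and d8. The WT libraries dropped at d2 and recovered in part, and the K36M libraries did not recover. Fzd1 had a log2 fold change of -1.10 ± 0.135 (adjusted p = 1.86e-06) at d2, -3.20 ± 0.154 (adjusted p = 6.83e-14) at d4, -3.88 ± 0.156 (adjusted p = 1.6e-15) at d6 and -3.74 ± 0.159 (adjusted p = 5.61e-15) at d8. In noOKSM MEFs Fzd1 was higher in K36M, with 0.90 ± 0.115 (adjusted p = 1.67e-06).

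Fzd7, the most abundant Frizzled gene by CPM in WT MEFs (Fzd2 was higher in K36M MEFs, at 156 CPM at d0) and a receptor known for its role in pluripotent cells, was lower in K36M already at d0. Fzd7 in WT cells stood at CPM values of 232 and 264 at d0, 100.2 and 105 at d2, 86.9 and 92.3 at d4, 84.2 and 79.7 at d6, 70.3 and 76.1 at d8, 147 and 139.6 in iPSCs, and 241 and 232 without OKSM. Fzd7 in K36M cells stood at CPM values of 112 and 109 at d0, 69.8 and 71.9 at d2, 37.1 and 36.2 at d4, 29.2 and 26.5 at d6, 48.3 and 40.7 at d8, 137 and 134 in iPSCs, and 124 and 113 without OKSM. For Fzd7, the K36M pair lay below the WT pair at d0, d2, d4, d6, d8, the iPSC stage and noOKSM. WT libraries fell from d0 to d8 and were higher again in iPSCs, so its course was not a simple loss. Fzd7 had a log2 fold change of -1.17 ± 0.0908 (adjusted p = 5.08e-09) at d0, -1.29 ± 0.0939 (adjusted p = 7.29e-11) at d4, -1.56 ± 0.0951 (adjusted p = 1.82e-12) at d6 and -0.72 ± 0.0925 (adjusted p = 5.5e-07) at d8, and it was called lower in noOKSM MEFs as well. In iPSCs it was -0.08 ± 0.0899 (adjusted p = 0.847).

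Fzd6, a receptor of planar polarity, differed from d4 to d8. Fzd6 in WT cells stood at CPM values of 31.5 and 32.8 at d0, 22.3 and 22 at d2, 36.5 and 40 at d4, 40.3 and 43.6 at d6, 40.6 and 40.5 at d8, 4.61 and 4.72 in iPSCs, and 28.9 and 31.8 without OKSM. Fzd6 in K36M cells stood at CPM values of 28.3 and 27.2 at d0, 17.2 and 15.6 at d2, 16.4 and 16.2 at d4, 8.31 and 16.3 at d6, 16.8 and 16 at d8, 5.86 and 5.67 in iPSCs, and 56.7 and 53 without OKSM. For Fzd6, the K36M pair lay above the WT pair at the iPSC stage and noOKSM and lay below it at d0, d2, d4, d6 and d8. Fzd6 had a log2 fold change of -1.23 ± 0.161 (adjusted p = 8.69e-07) at d4, -1.76 ± 0.164 (adjusted p = 2.38e-09) at d6 and -1.31 ± 0.16 (adjusted p = 2.67e-07) at d8, and 0.85 ± 0.152 (adjusted p = 0.000117) in noOKSM MEFs, the other way. Fzd3, also of planar polarity, was lower from d4 on. Fzd3 in WT cells stood at CPM values of 9.55 and 10.9 at d0, 17.4 and 15.4 at d2, 14.6 and 18.7 at d4, 17.7 and 18.4 at d6, 12.4 and 17.7 at d8, 5.81 and 5.38 in iPSCs, and 10.5 and 9.84 without OKSM. Fzd3 in K36M cells stood at CPM values of 9.55 and 8.93 at d0, 11.5 and 13.2 at d2, 9.2 and 11.5 at d4, 2.4 and 3.17 at d6, 5.23 and 4.45 at d8, 4.72 and 4.87 in iPSCs, and 6.9 and 5.16 without OKSM. For Fzd3, the K36M pair lay below the WT pair at d2, d4, d6, d8, the iPSC stage and noOKSM and overlapped it at d0. Fzd3 had a log2 fold change of -0.70 ± 0.168 (adjusted p = 0.00122) at d4, -2.69 ± 0.194 (adjusted p = 3.29e-11) at d6 and -1.65 ± 0.182 (adjusted p = 5.48e-08) at d8.

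Fzd8 showed a like pattern. Fzd8 in WT cells stood at CPM values of 17.7 and 17.8 at d0, 14.3 and 14 at d2, 11.8 and 12.7 at d4, 11 and 11.2 at d6, 8.34 and 8.76 at d8, 3.76 and 3.73 in iPSCs, and 16.6 and 15.4 without OKSM. Fzd8 in K36M cells stood at CPM values of 10.2 and 13.7 at d0, 15.9 and 15 at d2, 5.02 and 4.37 at d4, 3.02 and 2.73 at d6, 3.02 and 2.66 at d8, 5.45 and 4.77 in iPSCs, and 9.66 and 9.98 without OKSM. For Fzd8, the K36M pair lay above the WT pair at d2 and the iPSC stage and lay below it at d0, d4, d6, d8 and noOKSM. Fzd8 had a log2 fold change of -1.39 ± 0.133 (adjusted p = 7.34e-09) at d4, -1.95 ± 0.142 (adjusted p = 4.05e-11) at d6 and -1.59 ± 0.145 (adjusted p = 2.61e-09) at d8. Fzd9 and Fzd10, 2 receptors of low level, were higher in K36M: Fzd9 reached 4.62 CPM in K36M against 0.938 in WT at d4, and Fzd10 1.76 against 0.27. Both were called higher at each of d2, d4, d6 and d8. Reads of Fzd10 may be under-counted, since its 2 records overlap by 2430 bases on the same strand and the second holds 0 counts.

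Lrp6, the co-receptor of Frizzled proteins, is named for its level. Lrp6 in WT cells stood at CPM values of 97.8 and 142 at d0, 126 and 130.4 at d2, 90 and 126 at d4, 112 and 105 at d6, 100.1 and 121 at d8, 107 and 107 in iPSCs, and 155 and 144 without OKSM. Lrp6 in K36M cells stood at CPM values of 150.1 and 144 at d0, 108 and 121 at d2, 97.2 and 102 at d4, 34.6 and 55.2 at d6, 88.5 and 93.6 at d8, 96.7 and 100.2 in iPSCs, and 137 and 109 without OKSM. For Lrp6, the K36M pair lay above the WT pair at d0, lay below it at d2, d6, d8, the iPSC stage and noOKSM and overlapped it at d4. It was called only at d6 among the 7 stages, with a log2 fold change of -1.27 ± 0.184 (adjusted p = 2.7e-06), at the stage whose K36M replicates lay furthest apart. Lrp5, the second co-receptor, was 101 ± 7.06 CPM in K36M against 57.4 ± 2.62 in WT at d8 and was called higher there, and it was called lower in noOKSM MEFs, a call lost without 1 of 3 noOKSM libraries (adjusted p from 0.0822 to 0.369). Fzd2, Fzd4 and Fzd5 had group means between 0.443 and 185 CPM. Of these, Fzd2 was called lower at d2, d4 and d6, Fzd4 higher at d8 and Fzd5 lower at d6, and Fzd2 was called higher in noOKSM MEFs. Fzd2 lost its call at d2 (adjusted p = 0.0565 without K36M d2 replicate 2) and at d6 (adjusted p = 0.319 without K36M d6 replicate 2), and Fzd4 its call at d8 (adjusted p = 0.0945 without WT d8 replicate 1, 0.0585 without WT d8 replicate 2 and 0.194 without K36M d8 replicate 2). Fzd5 and Fzd7 had the highest iPSC means among the Frizzled genes (for Fzd5 165 ± 19.7 CPM in WT, 126 ± 2.05 in K36M), without a call between the genotypes there.

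**Figure D3:**
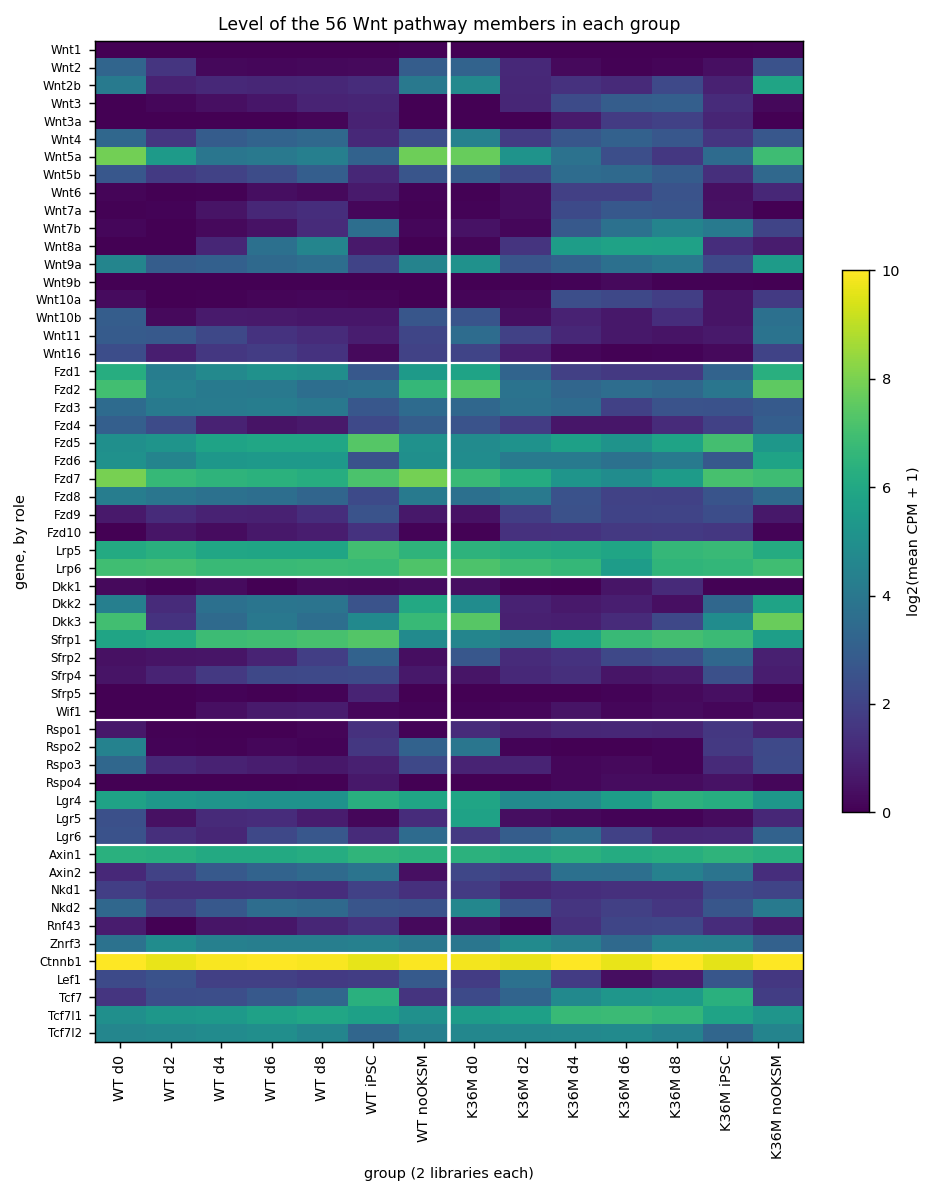
Mean level of each Wnt gene (rows, by role) in each of the 14 groups (columns, WT on the left and K36M on the right, 2 libraries each), as log2 of CPM + 1. Levels are read along a row, since longer genes gather more counts. Wnt8a and Wnt7b brighten from d4 in K36M, while Fzd1, Dkk2 and Dkk3 are darker in K36M than in WT from d4 to d8.

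The secreted antagonists Dkk2 and Dkk3 were high in MEFs, dropped by d2 in both genotypes, and from d4 on were called lower in K36M than in WT. Dkk3 is a member of the Dickkopf family at chr7:119259533-119302571 of mm9. Dkk3 in WT cells stood at CPM values of 127 and 125 at d0, 1.84 and 1.62 at d2, 10.1 and 9.64 at d4, 15.3 and 14.7 at d6, 11 and 11.8 at d8, 21.3 and 30.2 in iPSCs, and 110.4 and 98.5 without OKSM. Dkk3 in K36M cells stood at CPM values of 165 and 169.9 at d0, 0.828 and 0.814 at d2, 0.59 and 1.03 at d4, 1.87 and 0.843 at d6, 4.22 and 2.66 at d8, 25.4 and 31.1 in iPSCs, and 216 and 205 without OKSM. For Dkk3, the K36M pair lay above the WT pair at d0 and noOKSM, lay below it at d2, d4, d6 and d8 and overlapped it at the iPSC stage. All 4 libraries of d2 were at or below 1.84 CPM, after at least 125 CPM at d0. The log2 fold change of K36M against WT was -3.59 ± 0.277 (adjusted p = 2.01e-10) at d4, -3.49 ± 0.239 (adjusted p = 1.29e-11) at d6 (-4.15 without K36M d6 replicate 1) and -1.73 ± 0.209 (adjusted p = 2.19e-07) at d8. Dkk2, which blocks Lrp5 and Lrp6, did likewise. Dkk2 in WT cells stood at CPM values of 19.8 and 17.9 at d0, 1.31 and 1.39 at d2, 12.3 and 11.6 at d4, 12.4 and 15 at d6, 13.8 and 13.1 at d8, 3.71 and 6.17 in iPSCs, and 63.4 and 65.6 without OKSM. Dkk2 in K36M cells stood at CPM values of 28.6 and 28.4 at d0, 0.874 and 0.976 at d2, 0.197 and 0.986 at d4, 0.844 and 0.763 at d6, 0.24 and 0.387 at d8, 7.16 and 10.9 in iPSCs, and 52.5 and 57.6 without OKSM. For Dkk2, the K36M pair lay above the WT pair at d0 and the iPSC stage and lay below it at d2, d4, d6, d8 and noOKSM. Dkk2 had a log2 fold change of -4.30 ± 0.311 (adjusted p = 6.68e-11) at d4 (-3.59 without K36M d4 replicate 1 and -5.88 without K36M d4 replicate 2), -4.08 ± 0.285 (adjusted p = 1.81e-11) at d6 and -5.40 ± 0.345 (adjusted p = 5.84e-12) at d8.

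Sfrp1, a soluble protein with a Frizzled-like Wnt-binding domain, was lower in K36M at the start and caught up. Sfrp1 in WT cells stood at CPM values of 51.7 and 61.2 at d0, 68.6 and 69.7 at d2, 111 and 118 at d4, 122 and 123 at d6, 129 and 139 at d8, 164 and 156 in iPSCs, and 25.9 and 26.6 without OKSM. Sfrp1 in K36M cells stood at CPM values of 22.6 and 22.3 at d0, 17.4 and 16.2 at d2, 49.3 and 53.6 at d4, 114 and 106 at d6, 118 and 136 at d8, 114 and 112 in iPSCs, and 52.5 and 42 without OKSM. For Sfrp1, the K36M pair lay above the WT pair at noOKSM, lay below it at d0, d2, d4, d6 and the iPSC stage and overlapped it at d8. Sfrp1 had a log2 fold change of -1.33 ± 0.108 (adjusted p = 9.05e-09) at d0, -2.04 ± 0.11 (adjusted p = 6e-12) at d2, -1.15 ± 0.103 (adjusted p = 2.24e-09) at d4, -0.16 ± 0.1 (adjusted p = 0.15) at d6 and -0.09 ± 0.0998 (adjusted p = 0.476) at d8. In noOKSM MEFs the sign was the opposite of that at d0, with 0.85 ± 0.105 (adjusted p = 1.12e-06). Sfrp2, its relative, was called higher in K36M at every stage except iPSCs. Sfrp2 in WT cells stood at CPM values of 0.376 and 0.357 at d0, 0.613 and 0.231 at d2, 0.584 and 0.349 at d4, 0.873 and 1.16 at d6, 2.53 and 2.71 at d8, 8.27 and 7.2 in iPSCs, and 0.419 and 0.202 without OKSM. Sfrp2 in K36M cells stood at CPM values of 5.4 and 5.57 at d0, 1.38 and 1.3 at d2, 1.62 and 1.83 at d4, 4.18 and 2.89 at d6, 4.12 and 4.55 at d8, 8.56 and 9.94 in iPSCs, and 0.889 and 0.765 without OKSM. For Sfrp2, the K36M pair lay above the WT pair at d0, d2, d4, d6, d8, the iPSC stage and noOKSM. Sfrp2 had a log2 fold change of 3.89 ± 0.317 (adjusted p = 1.06e-08) at d0, 1.96 ± 0.343 (adjusted p = 4.17e-05) at d4 and 1.79 ± 0.267 (adjusted p = 3.13e-06) at d6. At d8 it was 0.72 ± 0.215 (adjusted p = 0.00624), and the call was lost without K36M d8 replicate 2 (adjusted p = 0.0533). The call at d2 was lost without WT d2 replicate 2 (adjusted p = 0.0605), and that in noOKSM MEFs without WT noOKSM replicate 2 (adjusted p = 0.127) or K36M noOKSM replicate 1 (adjusted p = 0.0564). Dkk1, a target of beta-catenin as well as an antagonist, had group means of at most 1.25 CPM. It held 22 counts in K36M against 0 in WT at d6 (at least 6.58-fold higher). Sfrp4 and Wif1 were called lower in K36M at d6 and d8, where Wif1 lost its calls without 1 library (adjusted p = 0.0757 without WT d6 replicate 1 at d6 and adjusted p = 0.128 without WT d8 replicate 1 and 0.276 without K36M d8 replicate 1 at d8), and Sfrp5 was called at no stage.

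**Figure D4:**
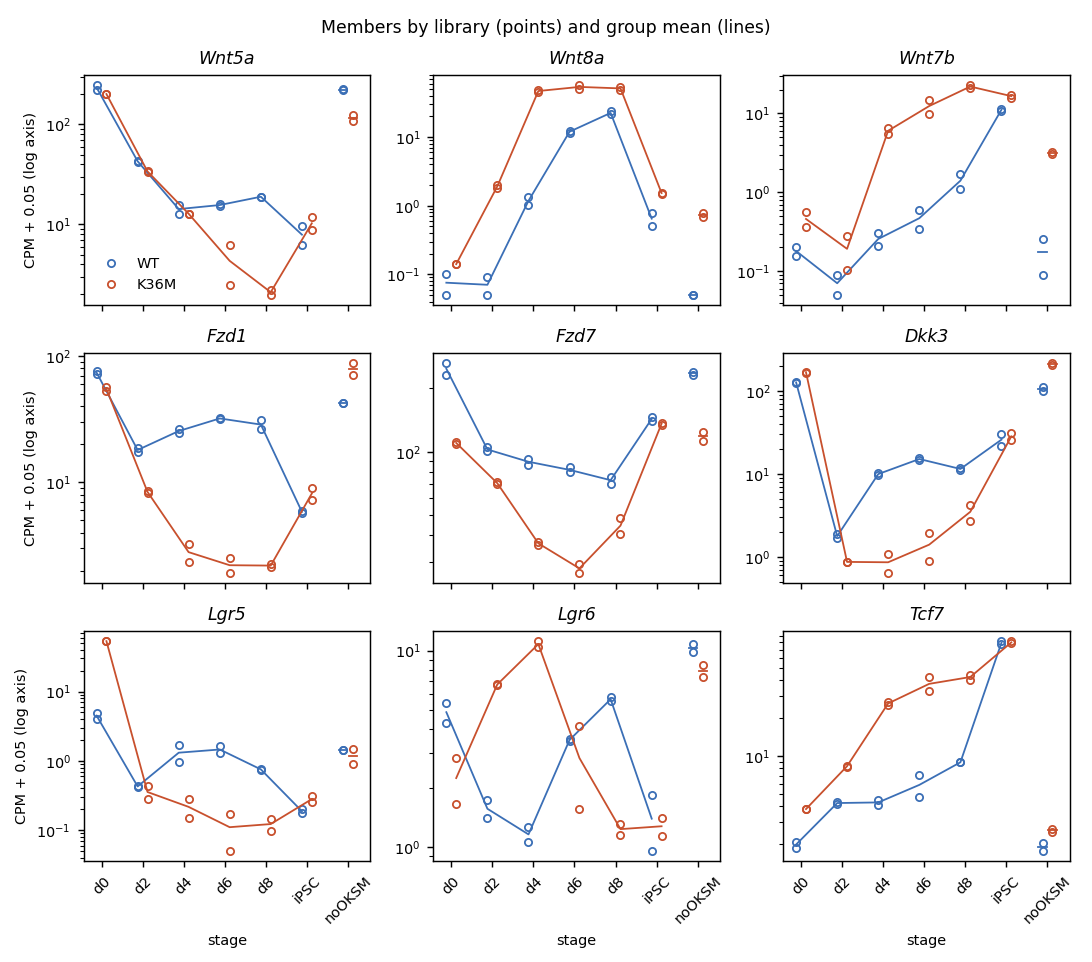
Level of 9 Wnt genes by stage, in CPM + 0.05 on a log axis, with 1 point per library and lines through the means of the 2 libraries of each genotype (blue WT, red K36M). From d4 to d8 the K36M points of Wnt8a, Wnt7b and Tcf7 lie above the WT points and those of Fzd1, Fzd7, Dkk3 and Lgr5 below them, and Lgr6 crosses over.

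Lgr5, a receptor of R-spondins that marks stem cells of several epithelia and is itself a beta-catenin target, stood out in K36M MEFs at d0. It lies at chr10:114887367-115024836 of mm9. Lgr5 in WT cells stood at CPM values of 3.97 and 4.9 at d0, 0.368 and 0.386 at d2, 0.902 and 1.62 at d4, 1.56 and 1.25 at d6, 0.705 and 0.699 at d8, 0.15 and 0.124 in iPSCs, and 1.4 and 1.37 without OKSM. Lgr5 in K36M cells stood at CPM values of 53 and 53.4 at d0, 0.23 and 0.38 at d2, 0.0984 and 0.235 at d4, 0 and 0.12 at d6, 0.048 and 0.0968 at d8, 0.259 and 0.201 in iPSCs, and 1.44 and 0.841 without OKSM. For Lgr5, the K36M pair lay above the WT pair at d0 and the iPSC stage, lay below it at d4, d6 and d8 and overlapped it at d2 and noOKSM. The log2 fold change at d0 was 3.58 ± 0.191 (adjusted p = 9.77e-12). It was no longer seen at d2, where it was -0.33 ± 0.532 (adjusted p = 0.758), and the K36M noOKSM MEFs did not share it, with -0.29 ± 0.292 (adjusted p = 0.473). From d4 the K36M pair was the lower one, with 3 counts against 60 in WT at d6, 22.3-fold (95% counting interval 7.27 to 111) more in WT. At d4 the log2 fold change was -2.94 ± 0.465 (adjusted p = 1.17e-05) (-3.68 without K36M d4 replicate 2).

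Lgr6, a second R-spondin receptor, was called lower in K36M at d0, higher at d2 and d4, and lower at d8. Lgr6 in WT cells stood at CPM values of 5.37 and 4.24 at d0, 1.67 and 1.35 at d2, 1.01 and 1.21 at d4, 3.49 and 3.42 at d6, 5.48 and 5.72 at d8, 0.902 and 1.78 in iPSCs, and 10.7 and 9.8 without OKSM. Lgr6 in K36M cells stood at CPM values of 2.77 and 1.61 at d0, 6.72 and 6.62 at d2, 10.3 and 11.1 at d4, 1.51 and 4.06 at d6, 1.1 and 1.26 at d8, 1.09 and 1.36 in iPSCs, and 7.28 and 8.41 without OKSM. For Lgr6, the K36M pair lay above the WT pair at d2 and d4, lay below it at d0, d8 and noOKSM and overlapped it at d6 and the iPSC stage. Lgr6 had a log2 fold change of -1.12 ± 0.304 (adjusted p = 0.013) at d0, a call lost without 1 library (adjusted p = 0.157 without WT d0 replicate 1 and 0.185 without K36M d0 replicate 2). It was 2.14 ± 0.302 (adjusted p = 1.31e-05) at d2, 3.25 ± 0.306 (adjusted p = 5.35e-09) at d4 and -2.24 ± 0.323 (adjusted p = 2.77e-06) at d8. Lgr4, the most abundant of the 3 receptors by CPM, changed sign in the other direction. Lgr4 in WT cells stood at CPM values of 50.5 and 56.2 at d0, 40.3 and 38.8 at d2, 34.8 and 35.4 at d4, 34 and 32.2 at d6, 30.6 and 35.2 at d8, 81.2 and 75.6 in iPSCs, and 59.8 and 56.6 without OKSM. Lgr4 in K36M cells stood at CPM values of 61.2 and 55.8 at d0, 25.3 and 27.7 at d2, 28.4 and 26.5 at d4, 39 and 53 at d6, 85.9 and 83.9 at d8, 75.2 and 71.6 in iPSCs, and 40.6 and 36.7 without OKSM. For Lgr4, the K36M pair lay above the WT pair at d6 and d8, lay below it at d2, d4, the iPSC stage and noOKSM and overlapped it at d0. Lgr4 had a log2 fold change of -0.58 ± 0.116 (adjusted p = 0.000729) at d2, 0.47 ± 0.114 (adjusted p = 0.000811) at d6 and 1.36 ± 0.113 (adjusted p = 4.67e-10) at d8. At d4 it was -0.35 ± 0.116 (adjusted p = 0.0126) and lost its call without WT d4 replicate 2 (adjusted p = 0.0594) or K36M d4 replicate 2 (adjusted p = 0.102).

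Rspo3, an R-spondin, was low in K36M MEFs at d0 but not in noOKSM MEFs. Rspo3 in WT cells stood at CPM values of 9.34 and 8.88 at d0, 1.59 and 0.849 at d2, 0.955 and 0.952 at d4, 0.551 and 0.914 at d6, 0.622 and 0.537 at d8, 0.852 and 0.787 in iPSCs, and 3.91 and 3.07 without OKSM. Rspo3 in K36M cells stood at CPM values of 1.12 and 0.829 at d0, 0.92 and 1.08 at d2, 0.148 and 0.141 at d4, 0.355 and 0.0402 at d6, 0.0959 and 0.0484 at d8, 1.45 and 1.15 in iPSCs, and 4.24 and 3.13 without OKSM. For Rspo3, the K36M pair lay above the WT pair at the iPSC stage, lay below it at d0, d4, d6 and d8 and overlapped it at d2 and noOKSM. Rspo3 had a log2 fold change of -3.22 ± 0.288 (adjusted p = 4.23e-08) at d0 and -2.68 ± 0.562 (adjusted p = 0.000321) at d4. At d6 it was -1.91 ± 0.551 (adjusted p = 0.00388), with -4.01 without K36M d6 replicate 1, and it lost its call without WT d6 replicate 2 (adjusted p = 0.0609) or K36M d6 replicate 2 (-1.03, adjusted p = 0.0998). At d8 the counts were 35 in WT and 3 in K36M, 7.9-fold (95% counting interval 2.49 to 40.1) more in WT. Rspo1 went the other way, with 46 counts in K36M against 1 in WT at d4, a ratio of 55.7-fold (95% counting interval 9.51 to 2246). Rspo2 was mainly a gene of MEFs (20.6 CPM in WT and 14.2 in K36M at d0), and Rspo4 reached at most 0.57 CPM. Rspo4 was called higher in K36M at d6, with 13 counts against 0 (at least 3.89-fold higher), a call lost without K36M d6 replicate 2 (adjusted p = 0.0604). At d8 it held 11 against 3, a ratio of 5.41-fold (95% counting interval 1.43 to 30.2), with a call (adjusted p = 0.0489) that most alternatives lost (adjusted p up to 0.249).

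Feedback genes are switched on by beta-catenin and dampen the pathway. Axin2, the most widely used readout of beta-catenin activity, was singled out for that use and not by the rule for named genes. Axin2 in WT cells stood at CPM values of 1.5 and 0.969 at d0, 3.19 and 2.66 at d2, 5.89 and 6.06 at d4, 8.55 and 7.56 at d6, 9.46 and 10.6 at d8, 14 and 13.1 in iPSCs, and 0.384 and 0.242 without OKSM. Axin2 in K36M cells stood at CPM values of 3.44 and 3.36 at d0, 2.94 and 2.49 at d2, 12.3 and 11.3 at d4, 13.7 and 9.44 at d6, 19.7 and 19.9 at d8, 14.1 and 12.8 in iPSCs, and 1.65 and 1.26 without OKSM. For Axin2, the K36M pair lay above the WT pair at d0, d4, d6, d8 and noOKSM and overlapped it at d2 and the iPSC stage. Axin2 had a log2 fold change of 1.46 ± 0.245 (adjusted p = 0.000177) already at d0, 0.98 ± 0.163 (adjusted p = 2.18e-05) at d4, 0.52 ± 0.159 (adjusted p = 0.00608) at d6, 0.98 ± 0.149 (adjusted p = 5.78e-06) at d8 and 2.17 ± 0.34 (adjusted p = 2.51e-05) in noOKSM MEFs, and it was not called at d2. The d6 call was lost without 1 library (adjusted p = 0.066 without WT d6 replicate 2 and 0.188 without K36M d6 replicate 1). WT cells rose along the course too, from 1.24 ± 0.377 CPM at d0 to 10 ± 0.816 at d8 and 13.5 ± 0.636 in iPSCs, where K36M stood at 13.5 ± 0.896. Its exons overlap Gm11670 on the opposite strand (5 counts over all libraries). Rnf43, a ligase that removes Frizzled receptors, was called higher at d4, d6 and d8 and stood at 3.42 ± 0.0896 CPM in K36M against 1.08 ± 0.412 in WT at d8. At d0 Rnf43 was called lower, with -1.36 ± 0.439 (adjusted p = 0.0396), a call lost in 6 settings, among them DESeq2 and leaving out 1 of 3 d0 libraries (adjusted p from 0.0509 to 0.344 over the 6).

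Nkd2, an inhibitor that binds Dishevelled, crossed over. Nkd2 in WT cells stood at CPM values of 8.96 and 9.54 at d0, 3.23 and 2.51 at d2, 5.09 and 6.41 at d4, 9.83 and 12 at d6, 9.33 and 9.78 at d8, 5.26 and 5.13 in iPSCs, and 4.89 and 4.48 without OKSM. Nkd2 in K36M cells stood at CPM values of 23.4 and 23.5 at d0, 6.3 and 3.8 at d2, 1.97 and 1.78 at d4, 2.44 and 3.01 at d6, 1.97 and 1.98 at d8, 5.14 and 5.77 in iPSCs, and 18.7 and 14.2 without OKSM. For Nkd2, the K36M pair lay above the WT pair at d0, d2 and noOKSM, lay below it at d4, d6 and d8 and overlapped it at the iPSC stage. Nkd2 had a log2 fold change of 1.34 ± 0.169 (adjusted p = 4.76e-06) at d0, -1.63 ± 0.225 (adjusted p = 1.85e-06) at d4, -1.99 ± 0.198 (adjusted p = 7.2e-09) at d6, -2.27 ± 0.211 (adjusted p = 3.39e-09) at d8 and 1.81 ± 0.177 (adjusted p = 3.48e-08) in noOKSM MEFs. Its relative Nkd1 had group means between 1.12 and 3.75 CPM and was called only in noOKSM MEFs, higher in K36M, a call lost without 1 library (adjusted p = 0.0778 without WT noOKSM replicate 1, 0.102 without WT noOKSM replicate 2 and 0.149 without K36M noOKSM replicate 1).

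Znrf3, a ligase related to Rnf43 and named for its level, was close between genotypes on most days. Znrf3 in WT cells stood at CPM values of 11.3 and 13.9 at d0, 28.5 and 28.3 at d2, 17.9 and 21.4 at d4, 19.4 and 17.4 at d6, 16.4 and 20.7 at d8, 19.2 and 19.5 in iPSCs, and 14.7 and 14.7 without OKSM. Znrf3 in K36M cells stood at CPM values of 14.7 and 13.5 at d0, 25.9 and 27.1 at d2, 18.7 and 17.5 at d4, 9.47 and 9.88 at d6, 18.7 and 18.9 at d8, 18.6 and 18.2 in iPSCs, and 8.09 and 7.07 without OKSM. For Znrf3, the K36M pair lay below the WT pair at d2, d6, the iPSC stage and noOKSM and overlapped it at d0, d4 and d8. K36M was called lower at d6, where its log2 fold change was -0.93 ± 0.125 (adjusted p = 7.26e-07), and in noOKSM MEFs, with -0.96 ± 0.127 (adjusted p = 2.87e-06), and no other stage was called. Axin1, the scaffold of the destruction complex, is not itself a feedback target and varied little. Axin1 in WT cells stood at CPM values of 76.9 and 82.1 at d0, 75.6 and 77.6 at d2, 64.1 and 68.2 at d4, 68.1 and 63.2 at d6, 73 and 71.7 at d8, 91.7 and 91.7 in iPSCs, and 83.2 and 87.1 without OKSM. Axin1 in K36M cells stood at CPM values of 83.2 and 84.6 at d0, 72.1 and 73.5 at d2, 82.2 and 81.6 at d4, 78.6 and 63.3 at d6, 74.5 and 75.7 at d8, 92.5 and 86.1 in iPSCs, and 81.8 and 75.8 without OKSM. For Axin1, the K36M pair lay above the WT pair at d0, d4 and d8, lay below it at d2 and noOKSM and overlapped it at d6 and the iPSC stage. Its log2 fold changes between genotypes lay between -0.11 and 0.31 over the 7 stages, with a call at d4 that was lost with no filter (adjusted p = 0.0578) and without WT d4 replicate 1 (adjusted p = 0.101).

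At the nuclear end, Tcf7 rose with time in WT and far sooner in K36M. Tcf7 codes for TCF1, a Tcf protein that activates targets with beta-catenin. Tcf7 in WT cells stood at CPM values of 1.82 and 2.04 at d0, 4.08 and 4.28 at d2, 4.4 and 4.06 at d4, 6.98 and 4.72 at d6, 8.88 and 8.87 at d8, 81.8 and 77 in iPSCs, and 1.71 and 1.98 without OKSM. Tcf7 in K36M cells stood at CPM values of 3.75 and 3.73 at d0, 8.33 and 8.19 at d2, 26.8 and 25.5 at d4, 42 and 32.8 at d6, 44.4 and 40.4 at d8, 78.5 and 81.3 in iPSCs, and 2.46 and 2.6 without OKSM. For Tcf7, the K36M pair lay above the WT pair at d0, d2, d4, d6, d8 and noOKSM and overlapped it at the iPSC stage. Tcf7 had a log2 fold change of 0.98 ± 0.153 (adjusted p = 4.36e-05) at d2, 2.63 ± 0.142 (adjusted p = 4.22e-13) at d4, 2.67 ± 0.136 (adjusted p = 8.27e-14) at d6 and 2.25 ± 0.127 (adjusted p = 6.55e-13) at d8, and 0.01 ± 0.113 (adjusted p = 1) in iPSCs. K36M libraries at d8 were thus between the WT libraries of d8 and those of iPSCs. Tcf7l1, the repressor of pluripotency genes, rose past its iPSC level in both genotypes, by d4 in K36M and by d8 in WT, and further in K36M. Tcf7l1 in WT cells stood at CPM values of 32.3 and 29.1 at d0, 38 and 37.5 at d2, 38.8 and 44.9 at d4, 57.3 and 45.1 at d6, 59.4 and 58.1 at d8, 49.6 and 50.6 in iPSCs, and 32 and 30.1 without OKSM. Tcf7l1 in K36M cells stood at CPM values of 42.9 and 44.4 at d0, 50.2 and 50.7 at d2, 111 and 103 at d4, 143 and 80 at d6, 98.1 and 96.9 at d8, 57.4 and 53.6 in iPSCs, and 39.6 and 32 without OKSM. For Tcf7l1, the K36M pair lay above the WT pair at d0, d2, d4, d6, d8 and the iPSC stage and overlapped it at noOKSM. Tcf7l1 had a log2 fold change of 1.35 ± 0.169 (adjusted p = 4.71e-07) at d4, 1.12 ± 0.167 (adjusted p = 3.58e-06) at d6 and 0.73 ± 0.165 (adjusted p = 0.0006) at d8. It shares 179 bases of exon with Gm15401 on the opposite strand (128 counts).

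Lef1, which like Tcf7 is both an effector and a target of the pathway, had a brief peak in K36M at d2. Lef1 in WT cells stood at CPM values of 2.79 and 4.59 at d0, 5.19 and 4.24 at d2, 2.44 and 3.01 at d4, 2.71 and 2.79 at d6, 2.74 and 1.8 at d8, 2.51 and 2.53 in iPSCs, and 6.22 and 5.93 without OKSM. Lef1 in K36M cells stood at CPM values of 2.46 and 2.49 at d0, 12.1 and 12.3 at d2, 2.71 and 2.16 at d4, 0.222 and 0.361 at d6, 0.815 and 0.532 at d8, 4.67 and 6.12 in iPSCs, and 2.46 and 1.76 without OKSM. For Lef1, the K36M pair lay above the WT pair at d2 and the iPSC stage, lay below it at d0, d6, d8 and noOKSM and overlapped it at d4. Lef1 had a log2 fold change of 1.37 ± 0.2 (adjusted p = 1.99e-05) at d2, -3.20 ± 0.37 (adjusted p = 7.82e-08) at d6 and -1.71 ± 0.323 (adjusted p = 8.65e-05) at d8. In noOKSM MEFs it was -1.53 ± 0.228 (adjusted p = 1.29e-05).

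Ctnnb1, which codes for beta-catenin, had the highest CPM of the Wnt genes in every group. Ctnnb1 in WT cells stood at CPM values of 1005 and 997 at d0, 804 and 814 at d2, 943 and 972 at d4, 980.0 and 1041 at d6, 903 and 1019 at d8, 796 and 765 in iPSCs, and 960.0 and 984 without OKSM. Ctnnb1 in K36M cells stood at CPM values of 902 and 918 at d0, 803 and 809 at d2, 1079 and 1083 at d4, 604 and 1025 at d6, 1040.1 and 1047 at d8, 791 and 767 in iPSCs, and 1066 and 1058 without OKSM. For Ctnnb1, the K36M pair lay above the WT pair at d4, d8 and noOKSM, lay below it at d0 and overlapped it at d2, d6 and the iPSC stage. Its log2 fold changes lay between -0.31 and 0.17. The call at d6, -0.31 ± 0.137 (adjusted p = 0.0467), was carried by K36M d6 replicate 1, without which it was 0.020 (adjusted p = 0.83). It was also lost without most other single libraries, with RLE scaling (adjusted p = 0.0657) and with DESeq2 (adjusted p = 0.0656). RNA level says nothing of the beta-catenin protein, which is set by its destruction. Ctnnb1 shares 240 bases of exon with Ulk4 on the opposite strand (1478 counts). Tcf7l2 was called at no stage, with group means between 8.82 and 29.9 CPM.

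Because Tcf and Lef proteins read a short DNA word, promoters were searched for it where sequence was given. Of the 56 genes, 38 had an entry in a RefSeq promoter table (GRCm38.p6, not the mm9 build of the counts), with 48 promoters, and the 250 bases before each start were searched on both strands for CTTTGNN with A or T at each N. The form that ends in TT is also the core word of Sox proteins. A match stood in 6 of the 48 promoters (12.5%), beside 14.8% of all 32851 promoters in the table. The 6 were those of Fzd7, Lef1, Wnt5b, Wnt11, Dkk1 (with 2 matches) and Tcf7l2, which was called at no stage. The relation of matches to expression was not tested. The matched promoters of 2 genes lower in K36M, Fzd7 and Wnt11, and of 2 with peaks or highs at d2 to d6, Lef1 and Wnt5b, are shown as examples with the matched word in capitals, as read 5′ to 3′ on the gene's strand. They are chr1:59481897-59482146, plus strand (Fzd7), chr3:131156044-131156293, plus strand (Lef1), chr6:119449387-119449636, minus strand (Wnt5b) and chr7:98834862-98835111, plus strand (Wnt11).
Fzd7: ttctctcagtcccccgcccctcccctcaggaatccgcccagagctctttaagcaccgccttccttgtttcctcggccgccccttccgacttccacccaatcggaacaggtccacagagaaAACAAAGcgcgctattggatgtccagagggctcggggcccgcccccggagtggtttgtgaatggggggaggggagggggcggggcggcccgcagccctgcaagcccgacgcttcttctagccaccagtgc
Lef1: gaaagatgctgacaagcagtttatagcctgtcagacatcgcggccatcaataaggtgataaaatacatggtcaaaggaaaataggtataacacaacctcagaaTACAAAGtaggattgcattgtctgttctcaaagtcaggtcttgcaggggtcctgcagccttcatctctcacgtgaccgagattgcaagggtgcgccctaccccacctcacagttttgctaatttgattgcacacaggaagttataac
Wnt5b: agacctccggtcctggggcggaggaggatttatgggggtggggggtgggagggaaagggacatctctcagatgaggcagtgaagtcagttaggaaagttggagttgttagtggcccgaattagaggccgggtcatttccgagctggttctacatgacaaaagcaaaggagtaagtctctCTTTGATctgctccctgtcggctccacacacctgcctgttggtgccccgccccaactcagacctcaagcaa
Wnt11: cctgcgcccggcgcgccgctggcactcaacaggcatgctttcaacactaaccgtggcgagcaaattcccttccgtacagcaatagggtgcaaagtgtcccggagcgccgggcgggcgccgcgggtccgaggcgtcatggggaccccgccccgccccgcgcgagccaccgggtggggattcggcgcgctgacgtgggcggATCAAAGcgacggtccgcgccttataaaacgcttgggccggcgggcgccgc
The word lies 130 bases before the start in Fzd7, 147 in Lef1, 71 in Wnt5b and 51 in Wnt11, counted from the first base of the word. A match is a description of the sequence and no evidence of binding.

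The WT course gives a reference for these differences. From d0 to d2, 8 Wnt genes were called higher and 25 lower in WT, where 27.1% and 30.7% of all genes were. Against d0, 13 were higher and 24 lower at d4 (28.3% and 29.1% of all genes), 16 and 21 at d6 (29.1% and 29.9%), and 16 and 20 at d8 (32.7% and 31.4%). From d2 to d8, 26 were called higher and 11 lower in WT (25.9% and 22% of all genes) and 25 and 18 in K36M (33.1% and 29.3%). Between WT iPSCs and WT d0, 22 were higher and 26 lower (40.1% and 37.4%). In a separate fit over d2 to d8 (16 libraries, day as a factor), 18 of 51 tested Wnt genes were called higher in K36M and 18 lower (30.2% and 28.2% of 15954 genes). Among those higher in this fit, Wnt3a, Wnt6, Wnt10a and Rspo1 passed the count filter only through K36M libraries. Among those lower, Lgr5 passed it only through WT libraries. Of the 33 called both there and between WT iPSCs and WT d0, 27 had the same direction in both, beside 87.5% of the 7898 genes called in both. The 6 with opposite directions were Sfrp1, Sfrp4, Fzd5, Wnt2b, Wnt5b and Wnt10b. Sfrp1, Sfrp4 and Fzd5 were higher in WT iPSCs than in WT MEFs and lower in K36M than in WT over d2 to d8. The ligands Wnt2b, Wnt5b and Wnt10b were lower in WT iPSCs and higher in K36M. Over d2 to d8 the calls on Sfrp4 and Fzd5 were lost without d6 (adjusted p = 0.0868 and 0.126), and that on Wnt10b under 11 settings (adjusted p from 0.0551 to 0.106).

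MEFs that never received OKSM differed between genotypes as well. Of the 16 ligands tested, 9 higher and 1 lower were called in K36M, where 18.2% and 16.7% of all genes were. Their median log2 fold change was 1.07, beside 0.007 over all genes. Wnt8a held 34 counts in the K36M pair and 0 in the WT pair (at least 12.2-fold higher), and Wnt10a 111 against 1, a ratio of 119-fold (95% counting interval 20.9 to 4747). Wnt7b stood at 3.18 and 3.02 CPM in K36M against 0.21 and 0.0403 in WT, with a log2 fold change of 4.51 ± 0.438 (adjusted p = 3.01e-08) (6.08 without WT noOKSM replicate 1 and 3.85 without WT noOKSM replicate 2). At d0, by contrast, Wnt8a held 4 counts in K36M and 1 in WT. Marker sums differed as well. The epithelial markers summed to 188 to 209.7 CPM in K36M noOKSM and 14.7 to 17.4 in WT noOKSM. At d0 they summed to 29.5 to 29.8 in K36M and 14.3 to 17.3 in WT. The endothelial markers were also higher in K36M noOKSM (20.2 to 24.2 CPM, against 6.04 to 7.46), as were the neural markers. The keratinocyte markers were lower (2.12 to 2.52 CPM, against 4.84 to 5.10), as were the macrophage markers. The part of these cell types was not tested. The noOKSM libraries belong to another numbered set of libraries than the rest, so the noOKSM stage and that set cannot be told apart, while the genotypes are compared within the set.

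In iPSCs the genotypes were close. The calls were Wnt8a and Lef1, higher in K36M, and Sfrp1, lower. Wnt8a had a log2 fold change of 1.27 ± 0.281 (adjusted p = 0.022), Lef1 of 1.10 ± 0.235 (adjusted p = 0.0159) and Sfrp1 of -0.50 ± 0.1 (adjusted p = 0.00855). Each of the 3 calls was lost without WT iPSC replicate 1 (adjusted p = 0.435, 0.192 and 0.162) and without K36M iPSC replicate 2 (0.159, 0.323 and 0.144). Wnt8a and Sfrp1 also lost theirs without K36M iPSC replicate 1 (adjusted p = 0.122 and 0.0687), and Lef1 without WT iPSC replicate 2 (adjusted p = 0.0874).

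Other genes of the pathway were taken from a list of 74, of which 72 were found and 71 tested. Over d2 to d8, 19 of the 71 were called higher in K36M and 28 lower, beside 30.2% and 28.2% of all genes, with a median log2 fold change of -0.20. Of 13 target genes in it, 5 were called higher and 7 lower, and of 5 glypicans, co-receptors at the cell surface, 1 higher and 4 lower. Of 16 genes of the transduction machinery, 3 were higher and 4 lower. The target T, which codes for the mesoderm factor brachyury, stood at 7.23 ± 0.407 CPM in K36M at d4 against 0 in WT, and at 13.1 ± 1.14 against 1.73 ± 0.132 at d8. Cdx1, another target and a regulator of posterior identity, stood at 6.99 ± 0.793 against 0.377 ± 0.229 at d8. Dkkl1, a Dickkopf-like gene of germ cells, stood at 5.42 ± 0.204 against 0.367 ± 0.0503, and Celsr3, a cadherin of planar polarity, at 4.58 ± 0.233 against 0.819 ± 0.132. Fst, a target that codes for the activin inhibitor follistatin, fell in K36M to 2.62 ± 0.494 CPM at d8, where WT stood at 85.3 ± 8.49. Fst was lower in K36M already at d0 (72.7 ± 2.70 CPM against 163 ± 4.77) and in noOKSM MEFs (57.0 ± 7.84 against 122 ± 7.47). Its log2 fold change over d2 to d8 was -3.28 ± 0.405 (adjusted p = 1.29e-05). Wisp2, Daam2 and Sost were called lower over these days as well, at 0.0965 ± 0.0687 against 3.07 ± 0.12, 0.962 ± 0.266 against 13.9 ± 0.275 and 0.0963 ± 0.000605 against 9.16 ± 0.343 CPM at d8. Sost, an inhibitor of Lrp5 and Lrp6, was at 8.85 ± 0.219 in K36M against 5.27 ± 0.517 in WT at d2, before it fell.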

How the data were processed

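Raw counts per gene of 28 poly(A) libraries, made with a directional kit per the labels' protocols, stand in 1 deposited table. The submitters' processing notes name STAR 2.5.0, HTSeq 0.11.2, edgeR and the build mm9. The sources used here give no strand setting, annotation or treatment of multi-mapped reads. No column was left over (0 unused). Columns of iPSC and noOKSM libraries carry no stage and were matched by library number, genotype and replicate.

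In R 4.3.3, edgeR 4.0.16 scaled the counts by TMM, dropped genes with few counts (filterByExpr, minimum count 10, minimum total 15) and fitted a robust quasi-likelihood model to all 14 groups (14 residual degrees of freedom). CPM values use the scaled library size. The error of a log2 fold change is its standard error, the absolute change over the root of F. P-values are two-sided. The fit was run on data simulated from its own estimates of spread. That run cannot show how the fit performs in groups with a wider spread, such as K36M d6. Gene coordinates (mm9, counted from 1) and exon lengths come from GENCODE vM1. Ratios with 1 to 3 counts in a group carry exact binomial intervals, which cover counting error only, and a group at 0 was set to 3 counts over the pair.

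Members and lists were chosen with earlier results of these data known. Values per library are given for genes called with an absolute log2 fold change of at least 1 in at least 2 of the contrasts at d0 to d8 and a highest group mean of at least 5 CPM, and for the 2 genes of each role with the highest mean CPM. Alternatives were RLE scaling, no filter, a fit that is not robust, DESeq2, a replicate block, leaving out the noOKSM libraries, and each library in turn.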

Additional observations from a re-analysis of the deposited data

Results flagged for a closer look

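The difference between K36M and WT itself changed between stages for most of these genes. A joint test in edgeR set the differences at d2, d4, d6, d8 and iPSC against that at d0. It called 46 of 54 tested Wnt genes, where 75.8% of all genes were called. Among the named ligands the adjusted p was 3.64e-12 for Wnt8a, 2.13e-09 for Wnt7b, 7.76e-08 for Wnt5a, 8.81e-06 for Wnt5b, 9.84e-06 for Wnt11, 0.000209 for Wnt3 and 0.0058 for Wnt9a, the last of which lost its call without K36M d2 replicate 1 (adjusted p = 0.0518). Among the receptors it was 2.3e-14 for Fzd1, 4.89e-10 for Fzd8, 7.05e-09 for Fzd7, 5.33e-08 for Fzd3, 9.51e-07 for Fzd6 and 0.000411 for Lrp6. Among the antagonists it was 1.11e-12 for Dkk2, 4.01e-11 for Dkk3, 2.48e-10 for Sfrp1 and 5.96e-07 for Sfrp2. For the R-spondin and Lgr genes it was 3.51e-12 for Lgr5, 1.28e-09 for Lgr6, 4.61e-09 for Lgr4 and 2.87e-06 for Rspo3, for the feedback genes 5.27e-11 for Nkd2 and 0.000153 for Znrf3, and for the nuclear genes 1.74e-11 for Tcf7, 7.62e-09 for Lef1 and 0.000807 for Tcf7l1.

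The named genes that this test did not call were Wnt7a, Axin1 and Ctnnb1. For Wnt7a this stands beside calls at d4, d6 and d8 and MEF levels of at most 0.102 CPM per library. Lgr5 and Nkd2 were called higher in K36M at d0 and lower from d4 to d8, and Lgr6 was called lower at d0, higher at d2 and d4 and lower at d8.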

How the results depend on the processing

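Counts of called Wnt genes were recomputed for 16 comparisons, giving 532 values, of which 524 were within 1.5 times the reported count. The 8 others concern d0 and iPSC. At d0 (20 called) the count lay between 12 and 24 with 1 library left out: it was 13 without WT d0 replicate 1, 12 without K36M d0 replicate 1 and 12 without K36M d0 replicate 2. In iPSCs (3 called) it lay between 0 and 6: it was 5 with no filter, 0 without WT iPSC replicate 1, 0 without K36M iPSC replicate 2, and 6 without either K36M d6 replicate, which changes no iPSC library. For named genes, 329 calls gave 10896 values under 36 settings: 10695 kept direction and call, 200 lost the call and 1 reversed, Ctnnb1 at d6 (log2 fold change from -0.75 without K36M d6 replicate 2 to 0.020 without replicate 1). The calls lost at least once were 46. Over d2 to d8, Wnt5a, Lrp6 and Nkd2 lost theirs without d6, an alternative added after the data were seen. Replicate numbers do not pair the samples (correlations of deviations from -0.06 to 0.13), and the labels name nothing that same-numbered libraries share. A replicate block left 328 of the 329 calls and lost 1, Wnt5b at d2 (log2 fold change 0.65, adjusted p = 0.0507). That Wnt5b call was lost without the noOKSM libraries too (adjusted p = 0.0518). It was also lost without any single d2 library (log2 fold change from 0.52 to 0.78) and without many single libraries of other stages. With 2 libraries a group and few counts, differences of Wnt1 were not detectable at this depth, and Wnt9b (9 counts in K36M against 1 in WT at d6) was too low to be tested.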
